A study of Mus musculus with 6 samples.

Results

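Chemokines are small secreted proteins that attract leukocytes, and chemokine receptors are the membrane proteins by which those cells sense them. The genes described here are those whose symbol begins with Ccl, Cxcl, Ccr or Cxcr followed by a number and that had at least 1 probe set with a single gene symbol, a probe set being a group of oligonucleotides against a transcript. By this rule 46 of the 18193 genes measured were taken, 31 ligands and 15 receptors, read by 70 probe sets. The rule reads symbols and no measured values. Another 4 probe sets name such a gene beside others and did not enter the gene values.

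Livers of 3 Dnajb4+/+ (wild-type) and 3 Dnajb4-/- (HLJ1 knockout) mice were compared with an Affymetrix Mouse Genome 430 2.0 array each. All are labelled as untreated C57BL/6 males of 6 to 8 weeks, the 3 of a genotype as separate mice. Dnajb4 encodes HLJ1, a co-chaperone of the heat shock protein 40 family, and its deletion, made by gene targeting in embryonic stem cells, was constitutive and not limited to hepatocytes. The study asked what part HLJ1 has in liver carcinogenesis by a chemical, and the arrays compare the livers without that chemical.

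In the CC family the first conserved cysteines of the protein are adjacent, and in the CXC family a residue lies between them. Ligands are made by many cells, in the liver by hepatocytes, Kupffer cells (its resident macrophages), endothelium, stellate cells and bile duct cells, whereas most receptors are carried by leukocytes and couple to inhibitory G proteins. Several ligands are held low at rest and induced by cytokines through NF-kB, interferon-regulated factors and AP-1, while others, such as Cxcl12, are made constantly.

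Across genes, which are not independent replicates, Pearson's r was 0.9981 to 0.9985 within a genotype and 0.9935 to 0.9948 between genotypes. The number of arrays limits the precision, and the p-values measure only the spread between these 6 arrays. Xist, the RNA that silences an X chromosome in female cells, lay at 364 to 402 in Dnajb4+/+ and at 14.3 to 17.1 in Dnajb4-/- livers. The Y-linked genes Kdm5d, Uty and Eif2s3y, taken singly, lay in the Dnajb4+/+ arrays at 77.9% to 102% of their Dnajb4-/- mean. Dnajb4+/+ and Dnajb4-/- means were 25.5 and 25.8 in Kdm5d, 20.2 and 24.3 in Uty and 68.7 and 79.5 in Eif2s3y. Whether signals as dim as those of Kdm5d and Uty reflect Y-linked RNA was not tested. Of 14 genes known to be higher in female liver, 13 were lower in the arrays labelled Dnajb4-/-, with a median log2 difference of -3.85 and -7.02 in Sult3a1, a sulfotransferase. Whether the arrays labelled as Dnajb4+/+ males hold RNA of females or of several mice was not settled. Genotype and these sex-linked signals cannot be told apart, so each difference given here is one between arrays as labelled. Dnajb4 itself read 137 ± 5.51 and 124 ± 6.85 (SD, n = 3 each), which did not pass at a log2 difference of -0.14 (adjusted p = 0.145, limma). The part of the gene that its probe sets read was not analysed here, so the arrays labelled Dnajb4-/- are called so by their label.

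The 250 bases before the annotated start are shown for 4 ligands that were lower in Dnajb4-/- livers: Ccl9 and Ccl6, neighbours on chromosome 11 that fell together, Cxcl13, with the widest fall among CXC ligands, and Cxcl9, an interferon-induced gene. They are RefSeq sequences of GRCm38.p6, 5′ to 3′ on the strand of the gene, at chr11:83578637-83578886 (minus strand), chr11:83593088-83593337 (minus strand), chr5:95956689-95956938 (plus strand) and chr5:92328080-92328329 (minus strand). Capitals mark matches, on either strand, to the motifs listed after them.
Ccl9: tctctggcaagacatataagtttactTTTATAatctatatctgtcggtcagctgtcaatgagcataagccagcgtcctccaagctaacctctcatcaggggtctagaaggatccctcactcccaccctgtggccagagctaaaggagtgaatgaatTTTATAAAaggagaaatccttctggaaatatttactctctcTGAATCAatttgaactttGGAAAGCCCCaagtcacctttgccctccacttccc
Ccl6: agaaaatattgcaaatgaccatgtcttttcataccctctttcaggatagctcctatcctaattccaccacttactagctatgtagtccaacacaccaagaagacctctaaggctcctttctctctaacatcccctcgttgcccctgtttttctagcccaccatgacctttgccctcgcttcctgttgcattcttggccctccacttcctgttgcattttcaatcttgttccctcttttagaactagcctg
Cxcl13: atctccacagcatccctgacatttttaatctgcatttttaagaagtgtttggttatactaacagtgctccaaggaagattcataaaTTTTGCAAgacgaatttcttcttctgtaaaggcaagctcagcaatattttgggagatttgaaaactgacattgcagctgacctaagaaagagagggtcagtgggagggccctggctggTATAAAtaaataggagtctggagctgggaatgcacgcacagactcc
Cxcl9: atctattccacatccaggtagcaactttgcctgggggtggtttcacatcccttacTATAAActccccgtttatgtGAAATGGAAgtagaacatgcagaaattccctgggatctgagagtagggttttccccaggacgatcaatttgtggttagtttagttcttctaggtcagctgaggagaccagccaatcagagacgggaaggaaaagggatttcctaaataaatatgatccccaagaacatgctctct
The motifs searched were the NF-kB consensus, the GAS element (TTCNNNGAA), an ISRE-type pair (GAAANNGAA), the AP-1 site (TGANTCA), an ETS core (GAGGAA), a C/EBP core (TTGCNNAA) and the TATA box (TATAAA). Ccl9 held an NF-kB match at 35 bases and an AP-1 match at 53 bases before the start. Matches to the TATA box letters began at 92 and 94 bases, where they overlap, and at 224 bases. Cxcl13 held a TATA box at 46 bases and a C/EBP core at 164 bases before the start. Cxcl9 held an ISRE-type pair at 175 bases and a match to the TATA box letters at 195 bases before the start. Ccl6 matched none of the 7 motifs.

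Such stretches were found for 33 of the 46 genes, some with more than 1 start (37 stretches in all), and for 9 of the 11 genes that differed between the genotypes. The NF-kB consensus stood in 27% of these stretches and in 7.25% of 32841 mouse promoters of the same length. The TATA box stood in 27% against 12.4%, the ISRE-type pair in 16.2% against 7.13%, the AP-1 site in 13.5% against 6.75% and the GAS element in 10.8% against 7.02%. The ETS core stood in 32.4% against 23.3%, and the C/EBP core in 8.11% against 9.57%. Some stretches of Ccl27a overlap and share an ETS and a C/EBP match, so the stretches are not independent. The ISRE-type pair and the ETS core can share letters, and each was counted on its own. A match is a run of letters and not a measured binding site.

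Of the 46 genes, 8 were lower and 3 higher in Dnajb4-/- livers, while 35 were not called (limma, adjusted p under 0.05 over all genes). The genes that fell were the CC ligands Ccl27a, Ccl9, Ccl6 and Ccl25 and the CXC ligands Cxcl13, Cxcl9, Cxcl14 and Cxcl12, and those that rose were Ccl22, Ccl2 and Cxcl5. These 11 genes were 23.9% of the members, beside 14.7% of all genes. Lower calls made up 17.4% of the members and 9.57% of all genes, and higher calls 6.52% and 5.09%. No member changed by 2-fold or more, and the median log2 difference (Dnajb4-/- minus Dnajb4+/+, as throughout) was -0.03 over the members (0.000295 after centring on the brighter probe sets) and 0.01 over all genes.

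All 11 were ligands, so that 35.5% of the 31 ligands and none of the 15 receptors passed, beside 14.7% of all genes. The arrays of the genotypes did not overlap for 18 members, 39.1% beside 35.5% of all genes. A group of 16 members had a gene average under 16 in all arrays and is called near background here. It held 9 of the 15 receptors and 7 of the 31 ligands, so signal level limits the receptor count. Of the other 30 members, 10 passed (33.3%, beside 17.9% of all genes not near background). They were 10 of 24 ligands and 0 of 6 receptors. The split of all calls moved with the centring: 34.7% of the genes that passed were higher as deposited and 50.5% after centring on the brighter probe sets, where 3 members were higher and 6 lower. Under that centring 16.4% of all genes were called.

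**Figure D1:**
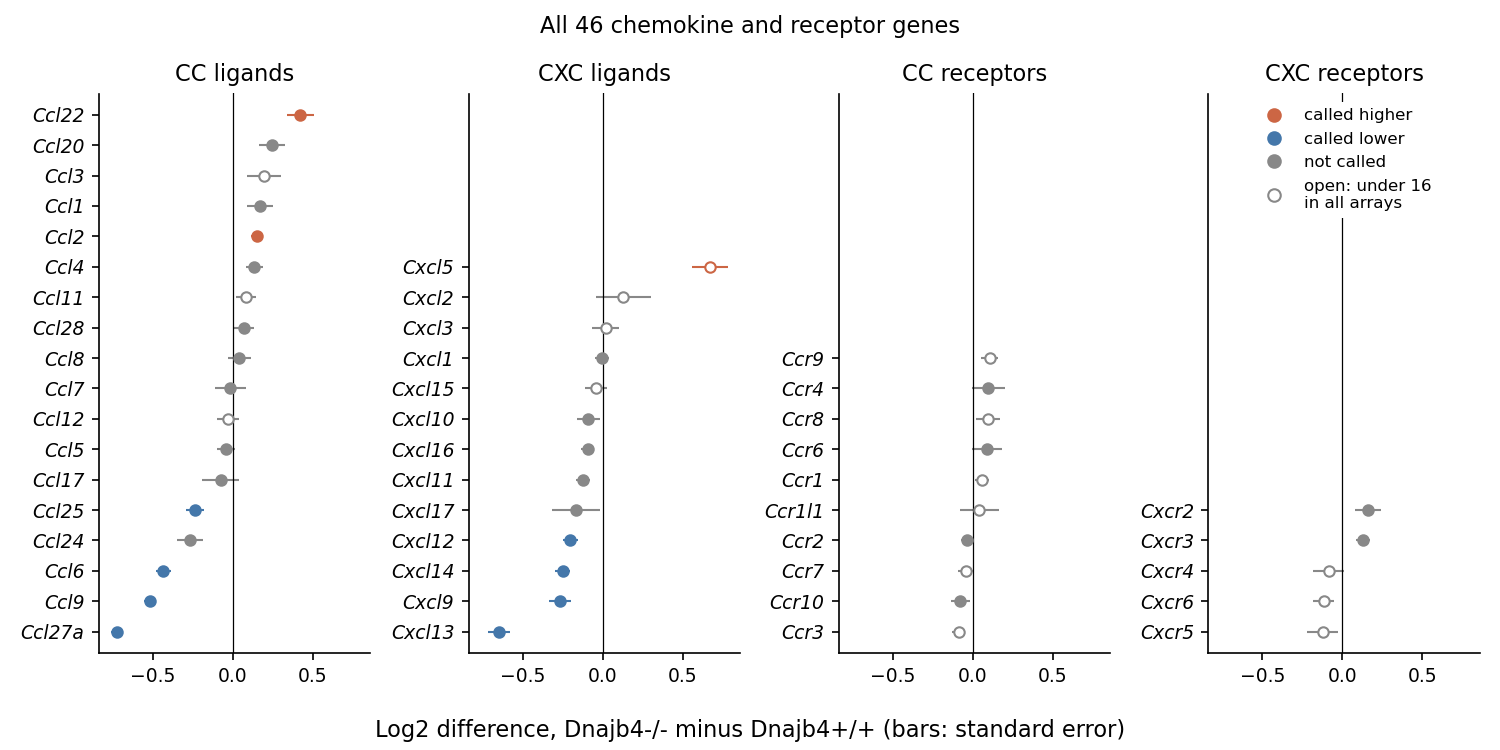
Log2 difference between Dnajb4-/- and Dnajb4+/+ livers (x axis, with the standard error as a bar, n = 3 arrays each) for each of the 46 genes, by family; red is called higher, blue called lower, grey not called, and open points read under 16 in all arrays. The called genes lie among the ligands, from -0.72 for Ccl27a to 0.67 for Cxcl5, and the receptors lie between -0.12 and 0.16.

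Ccl9 and Ccl6 are ligands of Ccr1 made by myeloid cells of rodents, and both were lower in Dnajb4-/- livers, by 30.1% and 26.0%. Ccl9 read 1519, 1528 and 1537 in Dnajb4+/+ livers against 1053, 1077 and 1072 in Dnajb4-/- livers. The genotypes lay far apart and the arrays of each were close together. The means of 1528 ± 8.97 and 1067 ± 12.4 (SD, n = 3) differed by -0.52 on the log2 scale (standard error 0.04, adjusted p = 1.98e-04, limma). Ccl6 read 201, 199 and 212 in Dnajb4+/+ and 147, 156 and 150 in Dnajb4-/- livers. Again no array of one genotype reached the other. The log2 difference was -0.43 (standard error 0.05, adjusted p = 0.00134, limma).

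Each of the 2 probe sets of Ccl9 passed on its own, at -0.42 for the brighter and -0.61 for the other, and so did the 2 of Ccl6, at -0.50 and -0.37. Both genes kept their call in all 17 alternative settings run. In RefSeq they lie side by side on chromosome 11 between Ccl5 and Ccl3, with Ccl4 next. The neighbours, which encode attractants of T cells and myeloid cells, did not pass the test. Ccl5 read 64.9 ± 4.68 and 62.9 ± 1.62 (adjusted p = 0.681, limma), Ccl4 89.8 ± 3.48 and 98.5 ± 4.95 (adjusted p = 0.144), and Ccl3 was near background at 11.3 ± 1.57 and 12.9 ± 0.855 (SD, n = 3 for each).

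Ccl27a, a ligand of Ccr10 known for drawing T cells to skin, had the widest fall, 39.5%. Its single probe set read 117, 118 and 120 in Dnajb4+/+ and 72.4, 71.2 and 71.5 in Dnajb4-/- livers. The spread within a genotype was small beside the gap between them. The log2 difference was -0.72 (standard error 0.04, adjusted p = 4.56e-05, limma), and the call was kept in all 16 alternatives in which the gene could be measured. Leaving out probe sets that can match several transcripts removed its single probe set, so that alternative could not be run for Ccl27a. The gene has near-identical copies and overlaps Il11ra1, a subunit of the interleukin-11 receptor, so that the transcript behind the signal is uncertain. The 2 probe sets that name Ccl27a beside other genes were lower too, at -0.60 and -0.65 (adjusted p = 0.00493 and 0.00207 over all probe sets, limma). Ccl28, the other Ccr10 ligand, made by epithelia, read 15.8 ± 0.448 and 16.6 ± 1.27 (adjusted p = 0.507).

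Ccl25, which draws T cells to thymus and gut through Ccr9, was 15% lower. It read 68.1, 71.0 and 76.8 in Dnajb4+/+ and 60.2, 63.5 and 59.6 in Dnajb4-/- livers, without overlap. A difference of -0.23 on the log2 scale (standard error 0.06, adjusted p = 0.0342, limma) came from unequal probe sets, 1 at -0.41 that passed alone and 1 at -0.06 that did not, and with the brightest probe set alone the gene did not pass (adjusted p = 0.664). The call was lost without Dnajb4+/+ replicate 2 or 3 (adjusted p = 0.0734 and 0.0817) and without Dnajb4-/- replicate 1, 2 or 3 (adjusted p = 0.0990, 0.0566 and 0.100).

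Ccl22, made by macrophages and dendritic cells and a ligand of Ccr4 on regulatory and type 2 helper T cells, was 34.0% higher. It read 15.4, 14.5 and 16.3 in Dnajb4+/+ and 21.0, 18.3 and 22.7 in Dnajb4-/- livers, so that the lowest knockout array still lay above the highest wild-type array. The log2 difference was 0.42 (standard error 0.09, adjusted p = 0.0191, limma), on a signal just above the near-background level. The call was lost without Dnajb4+/+ replicate 1 or 2 (adjusted p = 0.0611 and 0.0580) and without Dnajb4-/- replicate 1 (adjusted p = 0.0667). Ccl17, the other Ccr4 ligand, separated from Ccl22 on chromosome 8 by Cx3cl1 as the one coding gene, read 29.3 ± 0.608 and 28.0 ± 4.66 (SD, n = 3; adjusted p = 0.716).

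Ccl2, the chief attractant of monocytes through Ccr2, was 11.1% higher. It read 36.6, 37.6 and 37.4 in Dnajb4+/+ and 40.2, 42.4 and 41.4 in Dnajb4-/- livers. The arrays did not overlap, and the log2 difference was 0.15 (standard error 0.04, adjusted p = 0.0443, limma). This call was lost when any one of the 6 arrays was left out (adjusted p = 0.0599 without Dnajb4-/- replicate 1 to 0.136 without Dnajb4+/+ replicate 1), with a trended and robust variance (adjusted p = 0.0860) and with probe sets that can match several transcripts left out (adjusted p = 0.0645). Of the other monocyte attractants in its cluster, Ccl8 read 44.5 ± 3.20 and 45.8 ± 2.98 (adjusted p = 0.741), Ccl7 14.6 ± 2.06 and 14.3 ± 0.699 (adjusted p = 0.937), and Ccl12 was near background at 7.87 ± 0.345 and 7.71 ± 0.662 (SD, n = 3 for each).

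The remaining CC ligands did not pass. Ccl24, an eosinophil attractant made by macrophages, read 71.2 ± 2.40 in Dnajb4+/+ and 59.5 ± 6.49 in Dnajb4-/- livers without overlap (log2 difference -0.27, standard error 0.08, adjusted p = 0.0755, limma), and it passed in 3 of the alternatives. Ccl20, the Ccr6 ligand, read 21.4 ± 1.70 and 25.4 ± 2.05 (log2 difference 0.25, standard error 0.08, adjusted p = 0.0856). Ccl1, a ligand of Ccr8, read 16.2 ± 1.25 and 18.2 ± 1.6 (adjusted p = 0.227). Ccl11, another eosinophil attractant, was near background at 10.4 ± 0.140 and 11 ± 0.858 (SD, n = 3 for each).

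Cxcl13, which guides B cells through Cxcr5 and is made by stromal cells and macrophages, was 36.2% lower. It read 73.9, 87.8 and 80.8 in Dnajb4+/+ and 50.5, 50.2 and 53.8 in Dnajb4-/- livers. The Dnajb4+/+ arrays varied more, yet all lay above the Dnajb4-/- arrays. The means of 80.8 ± 6.99 and 51.5 ± 2.00 (SD, n = 3) differed by -0.65 on the log2 scale (standard error 0.07, adjusted p = 0.00141, limma). Its 2 probe sets passed singly, at -0.76 and -0.53, and the call was kept in all 17 alternatives.

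Cxcl14, an epithelial chemokine with a role in tissue leukocyte traffic, was 15.9% lower. It read 47.3, 47.4 and 43.8 in Dnajb4+/+ and 39.6, 38.7 and 38.1 in Dnajb4-/- livers, without overlap. The log2 difference was -0.25 (standard error 0.05, adjusted p = 0.0135, limma). The fall lay in 1 of its 2 probe sets, the brighter, at -0.49, while the other differed by -0.01, and the call was lost without Dnajb4+/+ replicate 1 (adjusted p = 0.0555).

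Cxcl12, the constantly made stromal ligand of Cxcr4, was 13.1% lower. Averaged over its 3 probe sets it read 336, 365 and 368 in Dnajb4+/+ and 305, 309 and 315 in Dnajb4-/- livers. The ranges did not meet, and the log2 difference was -0.20 (standard error 0.05, adjusted p = 0.0336, limma). The 2 bright probe sets fell further, from 1212 ± 48.6 to 931 ± 5.17 (log2 difference -0.38) and from 1546 ± 6.01 to 1248 ± 36.3 (-0.31), and passed on their own (adjusted p = 0.00498 and 0.00846 over all probe sets). The dim one read 24.2 ± 3.20 and 25.5 ± 0.554 (adjusted p = 0.659). The averaged call was lost without Dnajb4+/+ replicate 2 or 3 (adjusted p = 0.0901 and 0.102) and without Dnajb4-/- replicate 1, 2 or 3 (adjusted p = 0.0969, 0.0918 and 0.0726), and after centring on the brighter probe sets (-0.17, adjusted p = 0.0533).

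**Figure D2:**
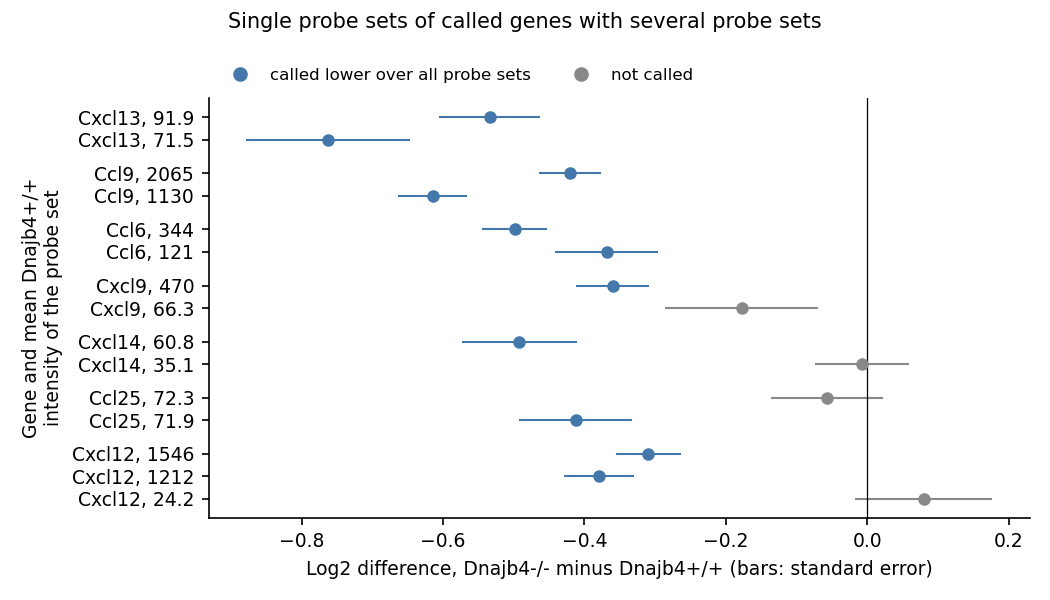
Log2 difference (x axis, with the standard error as a bar, n = 3 arrays each) of every probe set of the called genes that have more than 1, labelled with the mean Dnajb4+/+ intensity of the probe set; blue passed over all probe sets and grey did not. All probe sets of Cxcl13, Ccl9 and Ccl6 lie on the lower side and passed, whereas Cxcl9, Cxcl14, Ccl25 and Cxcl12 each have 1 that did not.

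The interferon-induced ligands of Cxcr3, which draw activated T and NK cells, gave 1 call in 3 genes. Cxcl9 read 168, 171 and 190 in Dnajb4+/+ and 155, 148 and 136 in Dnajb4-/- livers, 17.0% lower and without overlap. The log2 difference was -0.27 (standard error 0.07, adjusted p = 0.0440, limma). Its bright probe set fell from 470 ± 17.3 to 366 ± 10.4 (log2 difference -0.36, adjusted p = 0.00727 over all probe sets), and the other read 66.3 ± 7.81 and 58.6 ± 6.21 (adjusted p = 0.355). The averaged call was lost when any one of the 6 arrays was left out (adjusted p = 0.0544 without Dnajb4-/- replicate 1 to 0.111 without Dnajb4+/+ replicate 3) and under 2 other scalings of the arrays. Cxcl10 read 104 ± 10.6 and 97.8 ± 0.542 (adjusted p = 0.476), and Cxcl11, which RefSeq annotates as a transcribed pseudogene, 20.9 ± 0.674 and 19.2 ± 0.673 (adjusted p = 0.124).

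Neutrophil-attracting CXC ligands, several of which act through Cxcr2, were mostly dim. Cxcl1, the one whose gene average lay above that level, read 306 ± 8.64 and 305 ± 11.1 (SD, n = 3), and the log2 difference was -0.01 (standard error 0.04, adjusted p = 0.954, limma). Cxcl5 passed as higher at a near-background signal of 5.49, 6.14 and 4.70 in Dnajb4+/+ and 7.64, 9.15 and 9.12 in Dnajb4-/- livers. A difference of 0.67 on the log2 scale (standard error 0.11, adjusted p = 0.00938, limma) became 0.20 with 16 added to each intensity. Cxcl2, Cxcl3 and Cxcl15 were also near background as averages, with log2 differences of 0.13, 0.02 and -0.04, and did not pass. Of the probe sets of Cxcl15, 1 read 21.4 to 28.7 and did not pass either (log2 difference -0.05, adjusted p = 0.826 over all probe sets).

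Cxcl16, a membrane-bound ligand of Cxcr6, read 124 ± 1.77 in Dnajb4+/+ and 116 ± 3.68 in Dnajb4-/- livers without overlap (log2 difference -0.09, adjusted p = 0.176, limma). Cxcl17, a mucosal chemokine, read 24.4 ± 5.87 and 21.4 ± 0.762 (SD, n = 3 for each; adjusted p = 0.514).

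**Figure D3:**
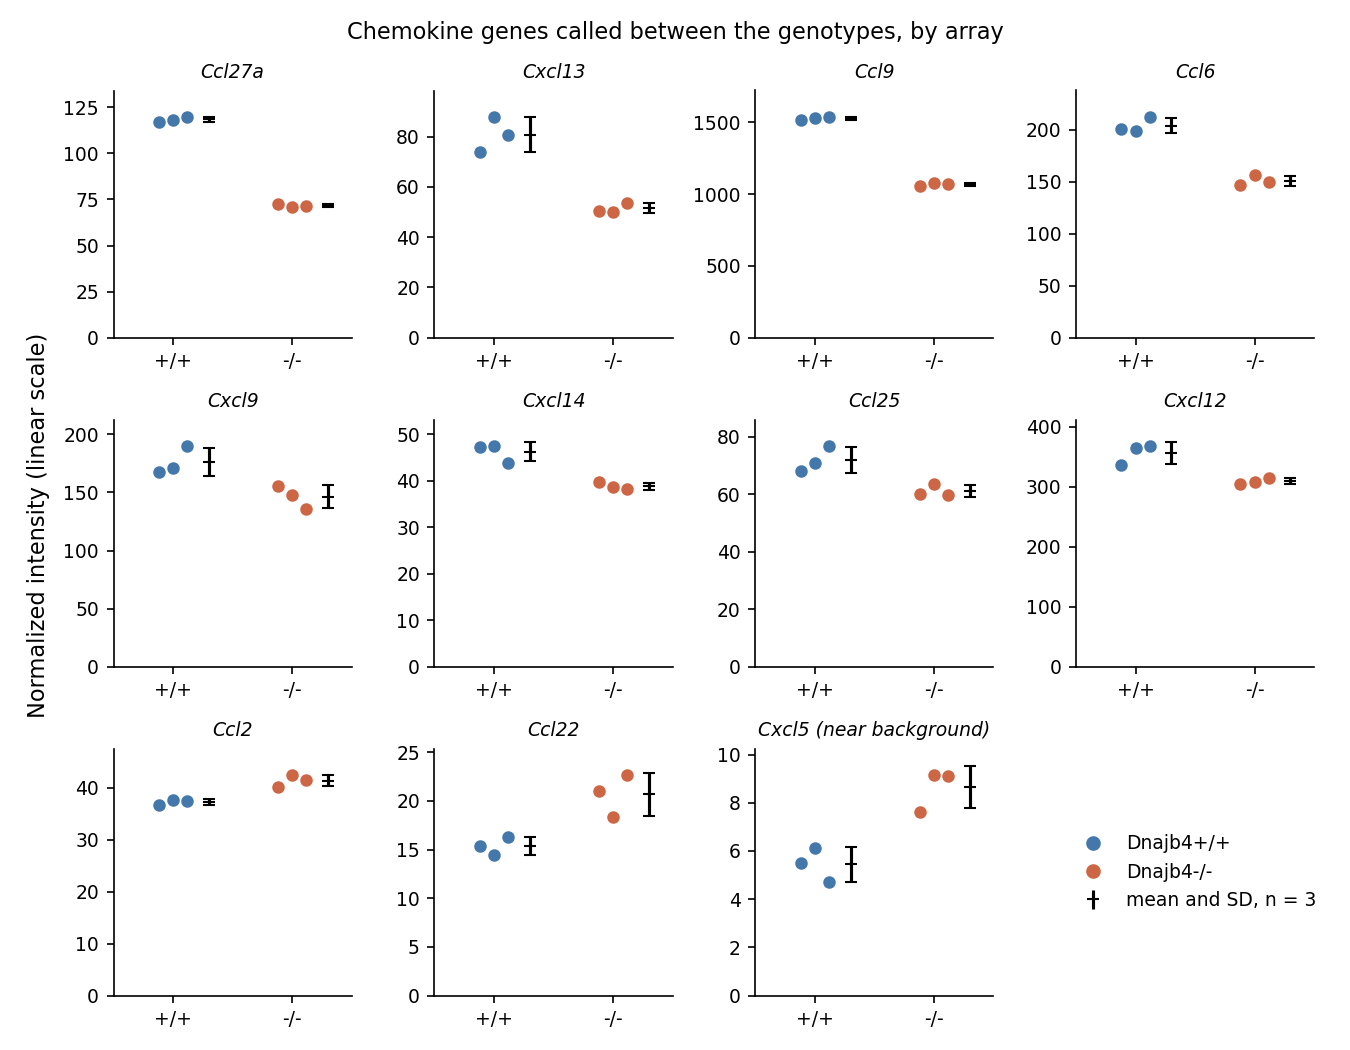
Normalized intensity (y axis, linear scale from 0) of the 11 called chemokine genes by array, 3 per genotype, beside their mean with the SD as a bar. In every panel the arrays of the genotypes do not overlap, with the widest gaps on the lower side in Ccl27a, Ccl9 and Cxcl13 and a gap at signals under 10 in Cxcl5.

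After adjustment over all genes, none of the 15 receptors passed with limma or with the test that the study's methods name. The methods name that test without such an adjustment. Of all genes, 14.7% passed with limma and 11.2% with that test. With limma, 1 of the 15 receptors had an unadjusted p under 0.05, as did 5370 of the 18193 genes. That receptor was Cxcr3, which binds Cxcl9 and Cxcl10 on activated T and NK cells. Dnajb4+/+ livers had a mean of 77.5 ± 2.68 and Dnajb4-/- livers one of 84.8 ± 2.43 (SD, n = 3) without overlap, and the log2 difference was 0.13 (standard error 0.04, adjusted p = 0.101, limma), and it passed with genes under the median signal left out (adjusted p = 0.0350). Cxcr2, the neutrophil receptor, read 24.8 ± 1.49 and 27.8 ± 2.77 (adjusted p = 0.235). The receptor medians were 0.04 over all 15 and 0.09 over the 6 that were not near background.

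Of the CC receptors that reached 16 in at least 1 array, Ccr10, which binds Ccl27a and Ccl28, read 37.5 ± 1.6 and 35.5 ± 2.23 (adjusted p = 0.440, limma). Ccr6, on B cells and type 17 helper T cells, read 22.6 ± 2.86 and 24.0 ± 1.51 (adjusted p = 0.581). Ccr2, the monocyte receptor of Ccl2, read 16.7 ± 0.364 and 16.3 ± 0.519 (adjusted p = 0.661), and Ccr4, which binds Ccl22, read 15.3 ± 1.30 and 16.4 ± 2.08 (SD, n = 3 for each; adjusted p = 0.585). The brightest of the 4 probe sets of Ccr2 read 40.8 ± 3.88 and 43.9 ± 2.09 (log2 difference 0.11, adjusted p = 0.439 over all probe sets). The other receptors, Ccr1, Ccr1l1, Ccr3, Ccr7, Ccr8, Ccr9, Cxcr4, Cxcr5 and Cxcr6, averaged under 16 in all arrays. The receptors of Ccl9 and Ccl6 (Ccr1), Ccl25 (Ccr9), Cxcl13 (Cxcr5) and Cxcl12 (Cxcr4) were among them as gene averages. Of the 5 probe sets of Ccr9, 1 read 18.6 to 20.8 and did not pass (log2 difference 0.06, adjusted p = 0.502 over all probe sets).

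Chemokine system genes outside these families did not pass with limma: 0 of 15, beside 14.7% of all genes. Of the 15, 3 had an unadjusted p under 0.05, as did 5370 of the 18193 genes. After adjustment over all genes, 1 of the 15 passed with the test of the study's methods, beside 11.2% of all genes. Rarres2, whose product chemerin attracts macrophages and dendritic cells, read 617 ± 12.6 and 567 ± 4.13 (adjusted p = 0.0707), and Ackr1, a scavenger of chemokines, 89.7 ± 7.67 and 95.8 ± 8.46 (SD, n = 3 for each; adjusted p = 0.519).

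Of 25 measured inducers and relays of chemokine genes, 1 rose and 2 fell, a share of 12% beside 14.7% of all genes, with a median log2 difference of 0.00 beside 0.01 over all genes. Irf1, an interferon-induced transcription factor, fell from 399.5 ± 6.15 to 343 ± 5.23 (log2 difference -0.22, adjusted p = 0.00900, limma), and Jun, a subunit of AP-1, from 163 ± 8.35 to 133 ± 2.31 (-0.29, adjusted p = 0.00977). Il1r1, the interleukin-1 receptor, rose from 44.6 ± 0.834 to 52.8 ± 1.78 (0.24, adjusted p = 0.0103). The cytokines Tnf, Il1b, Il6 and Ifng did not pass. Of these, Il6 and Ifng were near background. Il6 had means of 6.83 in Dnajb4+/+ and 6.58 in Dnajb4-/- livers, and Ifng of 6.92 and 7.31. Tnf was dim, at 20.2 and 20.5.

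Of 18 genes that relay or end chemokine signals, 3 fell and none rose, a share of 16.7% beside 14.7% of all genes. Arrb2, an arrestin that uncouples receptors from G proteins, read 180 ± 7.81 and 138 ± 2.74 (log2 difference -0.38, adjusted p = 0.00232, limma). Gnai2, an inhibitory G protein subunit used by chemokine receptors, read 817 ± 30.5 and 682 ± 11.8 (-0.26, adjusted p = 0.00867). Gnai3, another inhibitory subunit, went the other way without overlap, at 606 ± 44.3 and 740 ± 71.4, and was not called (0.29, adjusted p = 0.0641). Dpp4, a peptidase that trims several chemokines, read 350.1 ± 10.5 and 309 ± 7.49 (-0.18, adjusted p = 0.0324; SD, n = 3 for each). The median over the 18 was -0.08.

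Markers of Kupffer cells and macrophages were mostly lower in Dnajb4-/- livers. All 11 were measured, 10 fell (90.9%, beside 14.7% of all genes called) and none rose, with a median log2 difference of -0.41. Their summed level was 6014 to 6335 in the Dnajb4+/+ and 4646 to 4903 in the Dnajb4-/- arrays. Cd68, a lysosomal protein of macrophages, had a log2 difference of -0.57 (adjusted p = 4.05e-04, limma) and Vsig4, a complement receptor of Kupffer cells, one of -0.54 (adjusted p = 2.51e-04). The scavenger receptor Marco and Timd4, a receptor for dying cells, were each at -0.49 (adjusted p = 0.00129 and 0.00441). These stand beside log2 differences of -0.52 in Ccl9, -0.43 in Ccl6 and -0.65 in Cxcl13, which macrophages can make. Of the other ligands named here as made by macrophages, Ccl22 was called higher at 0.42, and Ccl24 was at -0.27 and not called. In whole liver, fewer cells of a type and less RNA per cell cannot be told apart, and the part of these markers in the chemokine results was not tested.

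Markers of liver endothelium went the same way, with 4 of 7 lower (57.1%, beside 14.7% of all genes called) and none higher. Their median was -0.28 and their sums were 1377 to 1426 against 1186 to 1261. With the test of the study's methods, adjusted over all genes, 1 of the 7 passed. That test called 8 of the 11 Kupffer cell and macrophage markers and 11.2% of all genes. The hyaluronan receptors Stab2 and Lyve1 were at log2 differences of -0.31 and -0.30 (adjusted p = 0.0103 and 0.0186, limma), beside -0.20 in Cxcl12, which endothelium and stellate cells can make. Pecam1, an adhesion protein, and the lectin Clec4g were at -0.29 and -0.28 (adjusted p = 0.0337 and 0.0352). Of 7 stellate cell markers, 1 fell, a share of 14.3% that is near the 14.7% of all genes. It was the collagen gene Col1a2 (-0.22, adjusted p = 0.0402), and the summed level was 795 to 802 against 717 to 746.

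Among leukocytes that carry the receptors, 1 of 11 markers of T and NK cells fell, 9.09% beside 14.7% of all genes called. It was Nkg7, a granule protein (-0.30, adjusted p = 0.0270, limma), and the sums were 319 to 332 and 319.7 to 338. For B and plasma cells 1 of 5 (20%) fell (Jchain, which joins antibodies, -0.43, adjusted p = 0.00447), with sums of 162 to 175 and 145 to 148. After adjustment over all genes, none of 3 monocyte markers and none of 5 dendritic cell markers passed with limma or the test of the study's methods. With limma, 1 of the former, 0 of the latter and 5370 of the 18193 genes had an unadjusted p under 0.05. The marker sums were 404 to 419.8 against 327 to 371 for monocytes and 134 to 144 against 137 to 148 for dendritic cells. Plac8 read 385 ± 7.40 and 329 ± 25.7 and F13a1 17.5 ± 0.771 and 17.4 ± 1.61 among the former, Flt3 40.8 ± 1.64 and 44.8 ± 3.10 and Siglech 52.9 ± 1.98 and 52.0 ± 4.64 among the latter (SD, n = 3 for each).

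Of 7 neutrophil markers, 42.9% were called, beside 14.7% of all genes, with sums of 269.9 to 284 and 243 to 262. Ltf rose (0.52, adjusted p = 0.00631, limma) and S100a9 and S100a8 fell (-0.46 and -0.24, adjusted p = 0.00429 and 0.0337). Of 4 bile duct markers 1 (25%) rose, the transcription factor Sox9 (0.42, adjusted p = 0.00481), with sums of 126 to 142 and 145 to 149.7. Of 6 hepatocyte markers 33.3% were called, as Hnf4a rose (0.17, adjusted p = 0.0311) and Asgr1 fell (-0.23, adjusted p = 0.00752). Their summed level was 103173 to 103768 against 100758 to 101185, so that the labelled tissue carried its defining markers.

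**Figure D4:**
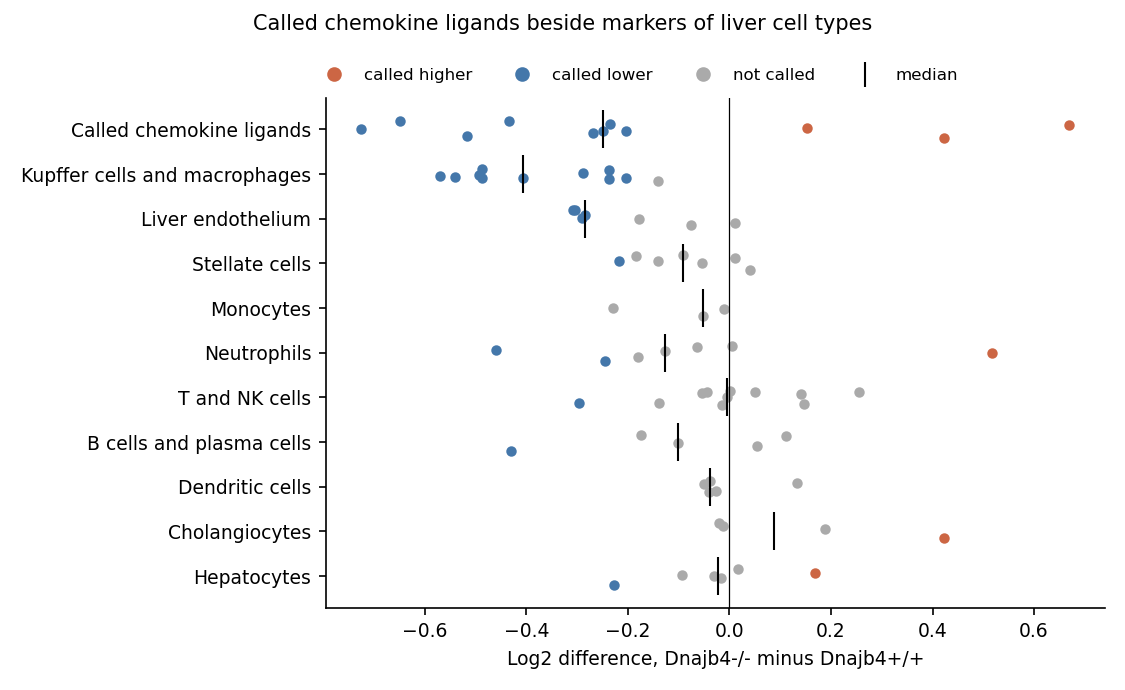
Log2 difference (x axis) of the 11 called chemokine ligands and of each measured marker gene of 10 liver and leukocyte cell types, with the median of each row as a black line; red is called higher, blue lower and grey not called. The Kupffer cell and macrophage markers lie at a median of -0.41 and the endothelial markers at -0.28.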

How the data were processed

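The authors extracted liver RNA from 3 mice of each genotype, hybridised 1 array per mouse and used GeneSpring to run GCRMA (background correction by probe GC content, normalization, a summary of each probe set) followed by global median centring; versions are not given in the sources used here. The deposited values are normalized intensities on a linear scale (lowest 3.90, array medians 31.8 to 32.5), with no detection calls. Dim values thus have no measure that tells them from background.

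Of 45101 probe sets, 64 controls were left out. The 34945 with a single symbol in the platform annotation were log2-transformed and averaged by gene, giving 18193 genes, and all 46 members were found in RefSeq (GRCm38.p6), which gave gene order and promoters. Genotypes, from the labels, were compared with limma 3.58.1 in R 4.3.3 (lmFit and eBayes, two-sided, Benjamini-Hochberg over all genes, threshold 0.05), and single probe sets in a fit over all probe sets. With 3 arrays against 3, the exact permutation test cannot go below p = 0.1, so none was used. The procedure was tested on simulated data. Plots were made in python 3.11.15 (matplotlib 3.10.9).

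Named are all called members with every array, the other members that reached 16 in at least 1 array with means, and those under 16 in all arrays as near background. From each other list the 4 most changed called genes at most, or its 2 brightest, are named. Outside that rule, the uncalled Tnf, Il1b, Il6, Ifng and Gnai3 are named too. The members and lists were chosen with earlier results of these data known. Alternatives covered scaling, low-signal filters, how probe sets were combined, adding 16, a trended and robust variance, the t-test named in the methods, a replicate block and each left-out array. Proteins were not analysed here.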

Additional observations from a re-analysis of the deposited data

How the results depend on the processing

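Ccl27a, Ccl9, Ccl6 and Cxcl13 kept their calls in every alternative in which they were measured, and no member called in either fit changed direction under the 17 alternatives. Ccl27a was not measured with probe sets that can match several transcripts left out. Against 3 higher and 8 lower members, leaving out each array gave 1 to 2 higher and 5 to 6 lower. Between 8.53% and 11% of all genes were called in those fits. The methods' t-test called 6 of the 46 members after adjustment, 1 higher and 5 lower, beside 11.2% of all genes. The main fit called 23.9% of the members and 14.7% of all genes. Of the main calls the t-test lost Ccl22, Ccl25, Cxcl12, Cxcl5 and Cxcl9. At its unadjusted threshold 15 members passed, without a count over all genes. Leaving out genes under the median signal kept 15 members, of which 1 was higher and 8 lower, with Ccl24 and Cxcr3 as new calls. Of all genes kept by that filter, 35.6% were called. Ccl24 was also called with 16 added and with a trended, robust variance, where Ccl2 was lost. Quantile normalization lost Cxcl9, centring on the brighter probe sets Cxcl9 and Cxcl12, and leaving out probe sets that can match several transcripts Ccl2 and Cxcl9. The members' median of -0.03 became 0.000295 after centring on the brighter probe sets and -0.20 with genes under the median signal left out.

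The labels number the replicates alike in both genotypes, but deviations of same-numbered arrays correlated at -0.021, -0.141 and 0.009, so the numbers were not taken as pairs. With the replicate block, 2 members were higher and 5 lower, and calls over all genes went from 2667 to 1529, beside 1552 to 2009 with an array left out. Of 731 values of single members under the alternatives, 658 stayed on their side of the threshold, 42 lost and 4 gained a call, and 27 uncalled values crossed 0. Signal limits the 16 members near background.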

Other observations

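The 4 probe sets that name a chemokine gene beside others gave values that enter no gene above. The 2 that name Ccl27a beside its copies read 233, 193 and 218 in Dnajb4+/+ and 145, 135 and 145 in Dnajb4-/- livers, and 124, 117 and 119 against 70.3, 80.6 and 80.0. Of the other 2, whose symbols include several further genes, 1 read 68.2 ± 3.95 and 60.0 ± 2.39 (adjusted p = 0.110 over all probe sets, limma) and 1 read 102 ± 5.48 and 99.7 ± 3.47 (SD, n = 3 for each; adjusted p = 0.809).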
